A study of Ovis aries with 48 samples.

Results

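Visceral and subcutaneous fat were compared within 4 female sheep that had been exposed to testosterone before birth. The comparison rests on 8 of the 48 small RNA libraries of the series, 4 visceral and 4 subcutaneous, chosen by their labels and paired by sheep number (48, 185, 233 and 255). The mothers of these prenatal T sheep received 100 mg of testosterone propionate, about 1.2 mg per kg, into muscle 2 times a week from gestational day 30 to 90. Control sheep of the same cohort gave the same depots, again with 4 sheep, and the labels name no injection for their mothers. Sheep of a second cohort, exposed to bisphenol A (BPA) over the same gestational days or given corn oil, also gave both depots and are used at the end. All sheep were female, lived together and ate a maintenance diet. The labels give neither the age at sampling nor the site within the abdomen that visceral fat came from. RNA came from whole fat tissue, so that fewer cells of a type and less RNA per cell cannot be told apart.

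Fat depots differ in developmental origin, blood supply and metabolic behaviour, and visceral fat is lined by mesothelium, an epithelial sheet. MicroRNAs are short RNAs that lower the output of messenger RNAs they pair with, often made in families or genomic clusters that share a transcript. The DLK1-DIO3 region, an imprinted domain in which the maternal chromosome expresses noncoding RNAs and the paternal one expresses protein-coding genes such as DLK1, an inhibitor of fat cell formation, holds one of the largest such clusters in mammals. Small nucleolar RNAs (snoRNAs) guide chemical modification of ribosomal and spliceosomal RNA and are mostly cut from introns of host genes. The other classes measured were small nuclear RNAs (snRNAs), parts of the splicing machinery, and long noncoding RNAs (lncRNAs), of which a small RNA library captures fragments.

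The 8 libraries held between 260804 and 740161 reads in the 4 RNA classes. Levels are given below as normalised reads, that is reads scaled by the median ratio over the 8 libraries within a class, in the order of sheep 48, 185, 233 and 255. Fold changes are differences of log2(normalised reads + 1), which understates the change of low features. Library numbers in the labels fell into an early set, up to 48, and a later set, from 81. What the sets stand for is not stated, so that early and later refer to the numbers alone. All 4 subcutaneous libraries and the visceral library of sheep 255 were early, whereas the visceral libraries of sheep 48, 185 and 233 were later. In those 3 sheep depot and library set therefore cannot be told apart, and the difference or the levels of sheep 255 stand beside each call named. Pairs of 1 set also came from control sheep 131, 132 and 201, and a fit of these 3 pairs with that of sheep 255, chosen after seeing the data, is called the within-set fit. The visceral library of sheep 255 stood apart in other ways: MIR125B held 0.678% of its microRNA reads, against 4.32% to 7.95% in the other 15 visceral and subcutaneous libraries of the cohort. Without sheep 255, where the library set is fully tied to the depot, 73 features were called higher and 36 lower.

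Visceral fat had more microRNA of the DLK1-DIO3 cluster and more MIR218A than subcutaneous fat of the same prenatal T sheep. It had less MIR10A and MIR10B, which lie in HOX genes, and less MIR23A, MIR103, MIR152 and MIR221. Of 3 epithelial microRNAs tested, MIR200A and MIR200B were called higher, though they were not higher in sheep 48, and MIR200C did not pass (-0.50). MIR200A and MIR200B each kept their call in 1 of the 4 fits that left out 1 sheep. Of 412 features tested over the 4 classes, 35 passed (8.5%; limma, Benjamini-Hochberg adjusted p under 0.05 within a class), 23 higher (5.58%) and 12 lower (2.91%) in visceral fat. MicroRNAs made up most of these calls, with 16 of 77 higher (20.8%) and 9 lower (11.7%). In snoRNAs 4 of 176 were higher (2.27%) and 1 lower (0.568%). In lncRNAs 5 of 129 passed (3.88%), 3 higher (2.33%) and 2 lower (1.55%), and in snRNAs 0 of 30 passed with limma, where 7 had an unadjusted p under 0.05 and edgeR called 2 and DESeq2 5. On the values as deposited, which were scaled separately in each depot, 19 were called higher and 33 lower, and the median over all microRNAs was -0.58 in place of 0.24. Of the 35 calls, 33 had the same direction in all 4 sheep, against 141 of all 412 features (34.2%), and all 35 had it in sheep 185, 233 and 255. Visceral and subcutaneous libraries did not overlap for 13 of the 23 higher and 9 of the 12 lower features, against 64 of all 412 (15.5%). The 35 features were called on these same 4 pairs, so that direction and overlap are no separate check of the calls. Leaving out each sheep in turn, 12 microRNAs kept their call every time: MIR127, MIR432, MIR495, MIR382, MIR493, MIR218A, MIR10B, MIR10A, MIR23A, MIR103, MIR152 and MIR221.

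The members of the DLK1-DIO3 cluster that passed were all higher in visceral fat. The RefSeq table for sheep (assembly ARS-UI_Ramb_v3.0) places 54 of the listed microRNAs between DLK1 and DIO3, and 28 of them were abundant enough to test. Of these 28, 12 were higher and 0 lower with limma (19 and 0 at an unadjusted p under 0.05, 14 and 0 with edgeR, 18 and 0 with DESeq2), where of all 77 microRNAs 16 were higher with limma, 23 at an unadjusted p under 0.05, 18 with edgeR and 22 with DESeq2. A positive fold change was found for 26 of the 28, and their median was 1.25, against 0.24 over all 77 microRNAs. The filter, a mean of at least 5 over both depots, bears on these counts: MIR665, MIR3955, MIR323A, MIR655, MIR134 and MIR323C had a subcutaneous mean under 5 and passed it through visceral fat alone, so that their visceral mean had to be the higher one. The cluster median was positive on every scaling tried, at 0.57 as deposited, 1.26 in CPM (reads scaled to equal totals per library) and 1.09 with TMM factors. In visceral libraries the listed cluster members held 0.992%, 1.18%, 3.05% and 1.52% of microRNA reads, against 0.312%, 0.475%, 0.718% and 0.415% in subcutaneous libraries. Every visceral library lay above every subcutaneous one.

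MIR127, which lies opposite RTL1 and pairs with the RTL1 messenger in mouse, was the most abundant called member of the cluster. It had 4091, 5075, 6649 and 3477 normalised reads in visceral fat, against 936, 1426, 1779 and 1074 in subcutaneous fat. The depots did not overlap, and the difference was similar in the 4 sheep, including sheep 255 (1.69; log2 fold change 1.89, SE 0.15, adjusted p = 0.000552, limma). The within-set fit gave a smaller difference that still passed (1.01, adjusted p = 0.0124). MIR432, also within RTL1, had 344, 383, 299 and 128.3 in visceral and 86.7, 95.8, 79.4 and 38.6 in subcutaneous fat. Its 4 pair differences lay between 1.71 and 1.99 (1.89, SE 0.21, adjusted p = 0.00155; within-set 1.61), although its level in sheep 255 was low in both depots. MIR433, also of RTL1, had 102.3, 134, 62.3 and 14.4 in visceral and 28.3, 25.1, 27.2 and 9.49 in subcutaneous fat. Visceral levels were high in sheep 48, 185 and 233, and that of sheep 255 lay below 3 subcutaneous libraries (1.48, SE 0.39, adjusted p = 0.0314).

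The first stretch of the cluster, from the DLK1 side up to MIR370, had 6 tested members, MIR665 among them through visceral fat alone, and all 6 passed, with a median of 1.84. Beside the 3 microRNAs of RTL1 these were MIR493 (1.72, SE 0.33, adjusted p = 0.00803; 1.29 in sheep 255), MIR665 (1.98, SE 0.53, adjusted p = 0.0314) and MIR370 (1.79, SE 0.41, adjusted p = 0.0185). MIR665 was scarce, at 2.84, 5.89, 24.8 and 9.87 in visceral and 0, 2.36, 2.15 and 1.897 in subcutaneous fat, and passed in none of the fits that left out 1 sheep, where without sheep 233 it was too low to test. MIR370 had 119.3, 152, 212 and 22.8 in visceral fat and 30.02, 25.1, 42.9 and 17.1 in subcutaneous fat, so that the difference was large in sheep 48, 185 and 233 and 0.40 in sheep 255. After MIR370, 6 of 22 tested members passed and the median was 1.14. The difference between the stretches was not tested.

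All listed members after MIR370 overlap LOC105606646, a long transcript listed among the lncRNAs, as do MIR432, MIR136 and MIR370 itself. MIR495 had 42.6, 38.9, 68.3 and 39.5 in visceral and 10.01, 8.64, 11.4 and 5.69 in subcutaneous fat, and every visceral library exceeded every subcutaneous one (2.28, SE 0.34, adjusted p = 0.00351). In sheep 255 the difference was 2.596, the highest of the 4, but the within-set fit, in which 3 of 4 pairs were of control sheep, did not pass (0.96, adjusted p = 0.109). MIR382 was at 196, 155, 175 and 74.4 in visceral and 40.02, 58.9, 51.5 and 25.3 in subcutaneous fat, with pair differences of 1.39 to 2.26 (1.73, SE 0.27, adjusted p = 0.00414; within-set 1.39). MIR3955, close to MIR370, had the highest fold change of the cluster (2.76, SE 0.46, adjusted p = 0.0047) on few reads. Its levels were 8.52, 10.6, 22.8 and 29.6 in visceral and 0, 1.57, 1.43 and 5.06 in subcutaneous fat. MIR329B (1.39, SE 0.38, adjusted p = 0.0335; 1.78 in sheep 255), MIR485 (1.49, SE 0.44, adjusted p = 0.0436) and MIR154B (1.53, SE 0.35, adjusted p = 0.0185) also passed. For MIR485 sheep 255 had 17.5 in visceral and 17.1 in subcutaneous fat, and for MIR154B its difference was 0.59. In the within-set fit MIR493 (0.95), MIR433 (1.26), MIR370 (0.96), MIR329B (1.30) and MIR485 (1.07) passed, whereas MIR3955 (1.06) and MIR154B (0.86) did not.

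Sheep 255 also went against the other sheep for some members that did not pass. MIR543 differed by 3.04, 1.81, 1.75 and -1.85 in the 4 sheep (1.19, SE 0.75, adjusted p = 0.264), and MIR323C by 2.76, 1.98, 3.14 and -0.49 (1.85, SE 0.70, adjusted p = 0.0763). MIR409 reached 173, 336, 307 and 55.4 in visceral and 75.04, 79.3, 117.3 and 60.1 in subcutaneous fat (1.13, SE 0.37, adjusted p = 0.0554), and without sheep 255 its adjusted p was 0.00423. The 2 tested members with a negative fold change were MIR412 (-0.43, SE 0.55) and MIR3959 (-0.02, SE 0.52).

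**Figure D1:**
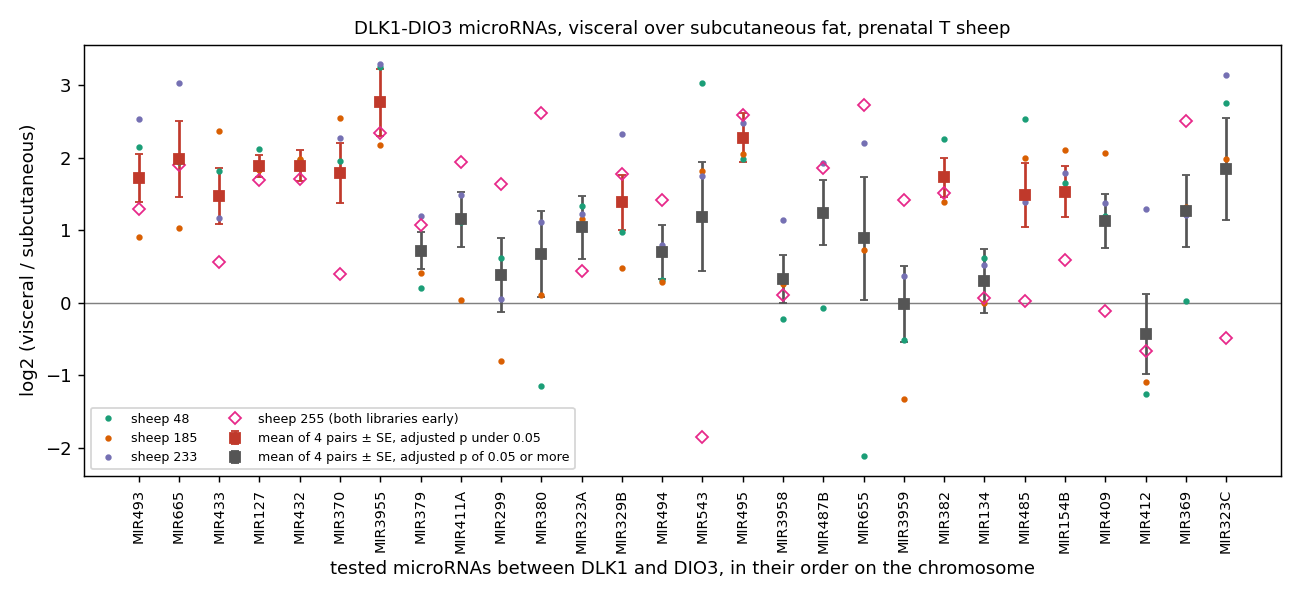
Log2 (visceral / subcutaneous) of normalised reads + 1 for the 28 tested microRNAs between DLK1 and DIO3, in chromosomal order on the horizontal axis, with the mean of 4 sheep ± SE as squares (red where the adjusted p was under 0.05) and each sheep as a small symbol. In total 26 of 28 means lie above 0 and 12 are red; open diamonds mark sheep 255, whose libraries were both early.

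MicroRNAs within HOX genes, which set position along the body axis, were lower in visceral fat, and both tested members passed. MIR10B, in HOXD4, had 847, 964, 864 and 2179 normalised reads in visceral fat, against 3799, 4136, 3271 and 4642 in subcutaneous fat. Visceral levels lay below all subcutaneous ones, with sheep 255 the highest of the visceral libraries (-1.82, SE 0.22, adjusted p = 0.00168). The difference was -1.09 in sheep 255 and -1.86 in the within-set fit (adjusted p = 0.00243). MIR10A, in HOXB3, had 1102, 1262, 1555 and 2022 in visceral and 2458, 3316, 3393 and 3629 in subcutaneous fat, again without overlap (-1.13, SE 0.16, adjusted p = 0.00301). Its within-set difference did not pass (-0.72, adjusted p = 0.0785).

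MIR218A lies in SLIT3, whose product guides migrating cells through ROBO receptors, themselves targets of this microRNA. It had 39.8, 84.8, 177 and 209.5 in visceral and 6.67, 12.6, 20.03 and 40.5 in subcutaneous fat. Each sheep had a difference of 2.34 to 3.08, while the levels themselves varied so much between sheep that the depots overlapped (2.62, SE 0.29, adjusted p = 0.00155). The within-set fit gave 2.04 (adjusted p = 0.00243). PANK3, the gene next to SLIT3 in the RefSeq table, holds MIR103, which with its near copy MIR107 in PANK1 lowers insulin sensitivity in mouse. MIR103 was lower in visceral fat, at 395, 464, 618 and 405, against 926, 980.5, 1508 and 1457 in subcutaneous fat. The depots did not overlap, and the difference was -1.85 in sheep 255 (-1.36, SE 0.19, adjusted p = 0.00301; within-set -1.30). MIR107 was lower too, by less (-0.70, SE 0.21, adjusted p = 0.0446; -0.35 in sheep 255; within-set -0.75). Their sequences are nearly alike, and the assignment of reads that fit both is not stated.

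**Figure D2:**
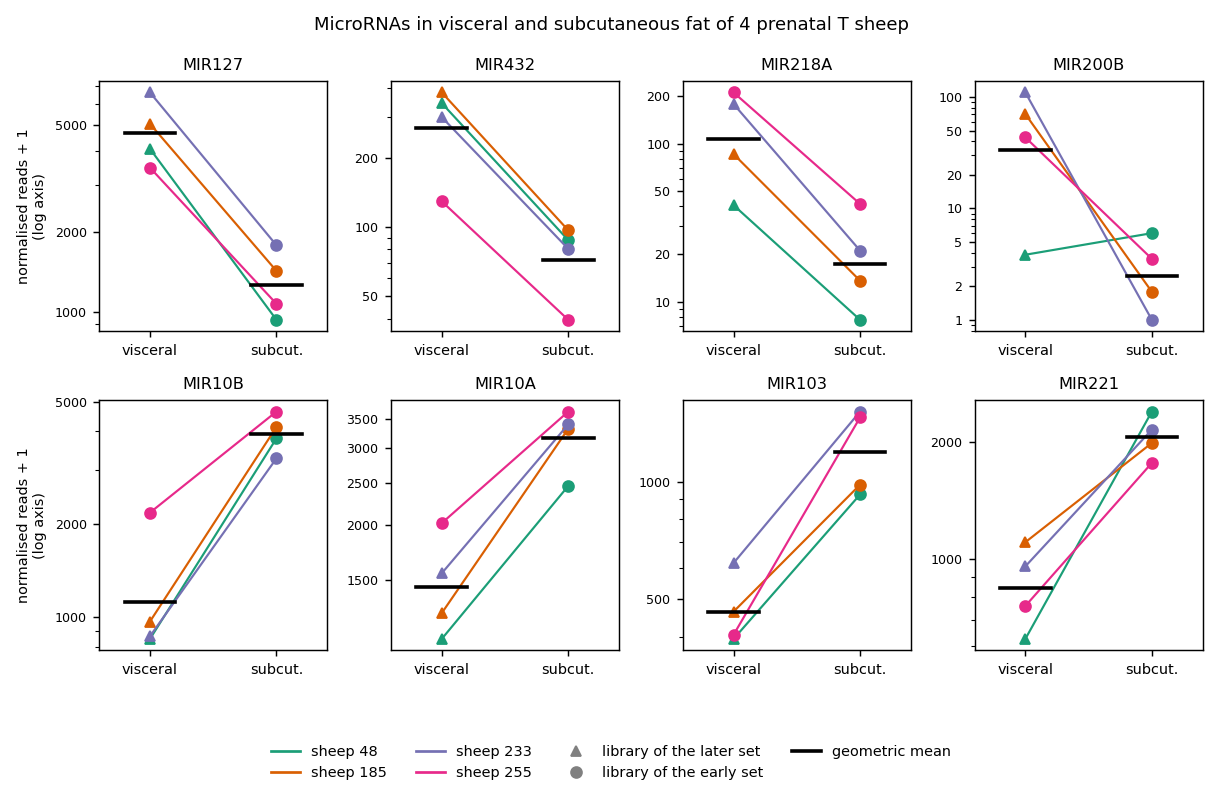
Normalised reads + 1 (log axis) of 8 microRNAs in visceral and subcutaneous fat of 4 prenatal T sheep, with a line joining the libraries of a sheep, triangles for the later and circles for the early library set, and a bar for the geometric mean. MIR127, MIR432 and MIR218A fall from left to right in every sheep, MIR10B, MIR10A, MIR103 and MIR221 climb in every sheep, and MIR200B falls in sheep 185, 233 and 255 but not in sheep 48.

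Further microRNAs lower in visceral fat included MIR23A, made from 1 transcript with MIR27A and MIR24. MIR23A had 3728, 3862, 4038 and 4403 in visceral and 10451, 10348, 8179 and 7372 in subcutaneous fat, 2 groups of narrow spread that did not overlap (-1.17, SE 0.19, adjusted p = 0.00414; within-set -1.11). Its near copy MIR23B, in AOPEP, was lower by less (-0.53, SE 0.16, adjusted p = 0.0446; -0.75 in sheep 255; within-set -0.74). MIR27A, a brake on fat cell formation, gave pair differences of 0.39, 0.12, -0.63 and -1.10 and did not pass (-0.30, SE 0.27, adjusted p = 0.41). MIR152, in COPZ2, a repressor of the DNA methyltransferase DNMT1, had 239, 393, 509 and 827 in visceral and 825, 827, 1241 and 1290.3 in subcutaneous fat. Here the visceral level of sheep 255 came to the level of the 2 lowest subcutaneous ones (-1.20, SE 0.22, adjusted p = 0.00763; within-set -1.05). MIRLET7I was lower by a similar amount in each sheep (-0.68, -0.82, -0.79 and -0.80), with levels of 11083, 11950.5, 15863 and 17699 in visceral and 17771, 21123, 27355 and 30867 in subcutaneous fat (-0.77, SE 0.16, adjusted p = 0.0135; within-set -1.05).

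MIR221, which declines as human fat cells mature, had 625, 1106, 959 and 759 in visceral fat and 2388, 1985, 2147 and 1765 in subcutaneous fat. No visceral library reached a subcutaneous one, and sheep 255 differed by -1.22 (-1.29, SE 0.21, adjusted p = 0.00439; within-set -1.28). The table places MIR221 inside the lncRNA LOC105605445, which was lower as well, at 498, 733, 1995 and 1766 in visceral and 2702, 2707, 4215 and 3654 in subcutaneous fat (-1.61, SE 0.37, adjusted p = 0.0484; within-set -1.48). Reads of these overlapping features cannot be told apart.

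Markers of other cell types moved in part with the depot. Of 6 listed microRNAs of epithelium and mesothelium, 3 were in the tables, and MIR200A and MIR200B passed, higher in visceral fat. MIR200B had 2.84, 69.5, 109.2 and 42.5 in visceral and 5.003, 0.785, 0 and 2.53 in subcutaneous fat, so that sheep 48 went the other way on few reads (3.77, SE 1.14, adjusted p = 0.0446; within-set 3.51, adjusted p = 0.00243). MIR200A had 0, 10.6, 19.4 and 42.5 in visceral fat, and subcutaneous libraries held at most 1 read each, so that its fitted fold change rests on the pseudocount (2.96, SE 0.84, adjusted p = 0.0375). MIR200A and MIR200B passed the filter on low values through visceral fat alone, so that their visceral mean had to be the higher one. MIR200C did not pass (-3.46, 1.97, 0.77 and -1.29 in the 4 sheep; -0.50, SE 0.90, adjusted p = 0.644). The 3 together made up 0.00045% to 0.0408% of microRNA reads in visceral libraries and 0.00125% to 0.00338% in subcutaneous libraries, and the part of these cells in the other differences was not tested.

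MIR150, a microRNA of lymphocytes and the single measured member of 5 listed for leukocytes, was slightly higher in visceral fat. It had 3006, 3615, 773 and 925 in visceral and 1998, 2064, 553 and 682 in subcutaneous fat, higher in 4 of 4 sheep (0.58, SE 0.15, adjusted p = 0.0314). The fold change turned to -0.16 on the values as deposited, and the within-set fit did not pass (0.58, adjusted p = 0.124). MIR133, of striated muscle, differed by -0.41, -2.32, 0.46 and 0.40 (-0.47, SE 0.49, adjusted p = 0.46), and MIR143, of smooth muscle and maturing fat cells, by 0.03, -0.80, -0.65 and 0.76 (-0.17, SE 0.29, adjusted p = 0.644). MIR194, of gut epithelium, was low at 34.1, 40.03, 54.9 and 128.3 in visceral and 30.02, 50.2, 53.6 and 82.9 in subcutaneous fat (0.13, SE 0.29, adjusted p = 0.697). MIR199A, a microRNA of mesenchyme listed with MIR218A, did not pass (-0.58, SE 0.22, adjusted p = 0.0752). None of the listed markers of red blood cells, endothelium, liver, pancreas, brown fat or adipocytes was among the microRNAs measured. The label of fat therefore could not be checked with adipocyte microRNAs.

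Of the 8 most abundant microRNAs MIRLET7I was the one that passed. MIRLET7B, of the let-7 family that promotes differentiation, had 176634, 209624, 35252 and 30195 in visceral and 107061, 93374, 45977 and 43953 in subcutaneous fat (0.24, SE 0.35, adjusted p = 0.578). Sheep 48 and 185 had more than sheep 233 and 255 in both depots, and the depot difference was positive in sheep 48 and 185 and negative in sheep 233 and 255. MIRLET7A (0.08, SE 0.28, adjusted p = 0.808) and MIRLET7C (0.16, SE 0.30, adjusted p = 0.658) followed the same order of sheep. Of 7 tested let-7 members MIRLET7I alone passed with limma. MIR99A (-0.60, SE 0.21, adjusted p = 0.0638) and MIR26A (0.16, SE 0.20, adjusted p = 0.542) did not pass. MIR125B had 31985, 27369.5, 18338 and 2271 in visceral and 35809, 38538, 29770.3 and 24399 in subcutaneous fat, lower in 4 of 4 sheep, with the visceral level of sheep 255 far below the rest (-1.20, SE 0.53, adjusted p = 0.123; without sheep 255 -0.54, adjusted p = 0.0513). The same library was the highest of all 8 for MIR143 and for MIR26B.

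MIR21, which rises with inflammation and fibrosis in many tissues, varied more between sheep than between depots. It had 412, 497, 2143 and 1756 in visceral and 337, 436, 1848 and 1906 in subcutaneous fat (0.14, SE 0.16, adjusted p = 0.495). Levels in sheep 233 and 255 exceeded those in sheep 48 and 185 in both depots. MIR148A had the same order, at 1043, 1709.6, 3316 and 6204 in visceral and 1054, 1378, 4839.8 and 6819 in subcutaneous fat (-0.10, SE 0.18, adjusted p = 0.656). MIR150 had the opposite order of sheep. With sheep as a block, the median residual SD over microRNAs was 0.41 on the log2 scale, against 0.70 without it.

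**Figure D3:**
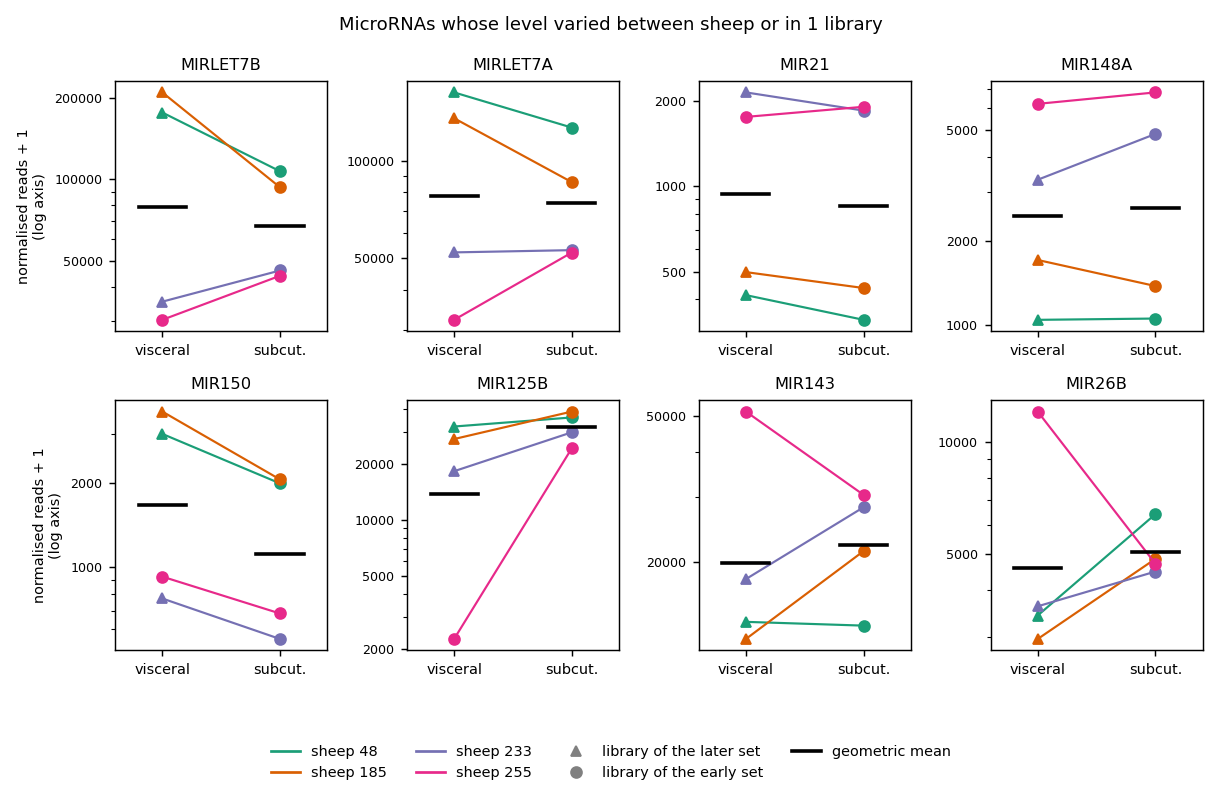
Normalised reads + 1 (log axis) of 8 microRNAs in visceral and subcutaneous fat of 4 prenatal T sheep, drawn as lines per sheep with triangles for the later and circles for the early library set and bars for the geometric mean. MIRLET7B, MIRLET7A and MIR150 are high in sheep 48 and 185 in both depots, MIR21 and MIR148A are high in sheep 233 and 255, and the visceral library of sheep 255 is the lowest for MIR125B.

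Of 176 snoRNAs 5 passed with limma, while 46 had an unadjusted p under 0.05. The count depended on the fit, with 22 higher and 4 lower in DESeq2, 7 and 1 in edgeR, 5 and 7 in CPM, 13 and 5 without sheep as a block, 42 and 11 without sheep 255, and at most 2 higher without any other sheep. The 4 called higher in visceral fat lie in LOC105606646, C23H18orf32, RPS20 and RPL13A. RPS20 and RPL13A encode ribosomal proteins, common hosts of snoRNAs. LOC114109215, of the DLK1-DIO3 region, had 34.5, 25.8, 109.9 and 34.9 normalised reads in visceral fat, against 2.796, 2.22, 5.34 and 1.31 in subcutaneous fat (3.59, SE 0.36, adjusted p = 0.0018). Every visceral library was well above every subcutaneous one, and sheep 255 differed by 3.96. The within-set fit gave 1.70 (adjusted p = 0.178). Of 33 listed snoRNAs inside LOC105606646, 4 passed the filter on low values, each through visceral fat alone, so that the visceral mean had to be the higher one. The other 3 had fold changes of 2.96 (LOC114109206), 1.86 (LOC114109209) and 1.62 (LOC114109213), with adjusted p from 0.082 to 0.0966.

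LOC114110519, in C23H18orf32, was at 77.5, 70.8, 106.7 and 8.21 in visceral and 6.99, 4.43, 6.68 and 2.61 in subcutaneous fat (3.05, SE 0.48, adjusted p = 0.015). The visceral level was high in the 3 later libraries and low in the early one of sheep 255, and the within-set fit reversed the sign (-0.39, adjusted p = 0.716). LOC114116498, in RPS20, had 25.8, 19.1, 18.4 and 18.5 in visceral and 5.59, 2.22, 1.34 and 2.61 in subcutaneous fat (2.54, SE 0.37, adjusted p = 0.0141; within-set 0.84, adjusted p = 0.435). It passed the filter on low values through visceral fat alone, so that its visceral mean had to be the higher one. LOC114118106, in RPL13A, was highest in the visceral library of sheep 255, with 39.3 to 215 in visceral and 12.02 to 16.6 in subcutaneous fat and a difference of 3.70 in sheep 255 (2.40, SE 0.48, adjusted p = 0.0403; within-set 0.71, adjusted p = 0.629). No pair of depots overlapped for these 4 snoRNAs, where 25 of all 176 snoRNAs did not overlap (14.2%). The 4 snoRNAs were called on these same libraries, so that this is no separate check. None of the 4 passed in the within-set fit.

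The 3 higher and 2 lower lncRNA calls depended on the scaling and on single sheep. In CPM 16 were higher and 1 lower, with a median of 0.53 in place of -0.09 on the main scaling. DESeq2 gave 10 and 3 and the fit without sheep 255 gave 11 and 7, while without any other sheep at most 2 were higher and 1 lower. LOC105607806, between ALOXE3 and the clock gene PER1, was higher in visceral fat. It had 22.1, 30.7, 56.7 and 99.9 normalised reads there, against 1.48, 10.3, 5.62 and 10.4 in subcutaneous fat (2.74, SE 0.41, adjusted p = 0.0122). All 4 sheep shared the direction, and sheep 255, with 2 early libraries, differed by 3.14, while the within-set fit did not pass (0.70, adjusted p = 0.614). LOC114109082, for which the RefSeq table has no entry, had 39.4, 31.2, 134 and 78.02 in visceral and 7.41, 8.62, 15.7 and 18.8 in subcutaneous fat (2.25, SE 0.38, adjusted p = 0.0151; within-set 1.30, adjusted p = 0.167). LOC105606646, the long transcript of the DLK1-DIO3 region, which the RefSeq table lists as protein coding, had 348, 330.1, 1143 and 410.4 in visceral and 118.5, 146, 210.1 and 110.7 in subcutaneous fat (1.76, SE 0.41, adjusted p = 0.0484; within-set 1.20, adjusted p = 0.108). It overlaps the microRNAs and snoRNAs above, and its reads cannot be told apart from theirs. LOC105603102, between AP3B2 and FSD2, was lower, at 29.95, 16.7, 56.7 and 76.5 in visceral and 123.0, 102.6, 194 and 271 in subcutaneous fat (-2.03, SE 0.39, adjusted p = 0.0248; within-set -1.87, adjusted p = 0.0211).

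Among snRNAs, 7 of the 30 tested had an unadjusted p under 0.05, all higher in visceral fat. None passed the adjustment with limma on the main settings. The limma count depended on the fit, with 5 higher as deposited, 4 with TMM factors, 1 in CPM and 2 without sheep as a block. It was 5 without sheep 185, 2 without sheep 255, and 0 without sheep 48 or 233 and in the within-set fit. In each of these fits 0 were lower. Fits with a library set term, which rest on sheep 255, are not counted here. The smallest adjusted p values were those of LOC114117093 (1.66, SE 0.51, adjusted p = 0.0529) and LOC114117060 (1.43, SE 0.49, adjusted p = 0.0644), neighbours between TEX14 and RAD51C. LOC114117093 had 167, 62.5, 61.7 and 158 in visceral and 31.3, 25.7, 23.2 and 50.3 in subcutaneous fat. LOC114117060 had 182, 83.9, 79.1 and 169 in visceral and 44.02, 40.7, 31.8 and 64.01 in subcutaneous fat. Neither overlapped between depots, where 8 of all 30 snRNAs did not (26.7%), 4 of them higher and 4 lower in visceral fat. Some entries had identical fits, such as snRNAs LOC114117112 and LOC114117113 (-0.70 each) and snoRNAs LOC114114254 and LOC114114255 (-0.15 each). Counts and medians over snRNAs and snoRNAs therefore do not rest on separate features throughout. LOC114115462 followed (1.59, SE 0.60, adjusted p = 0.0923). The snRNA median depended on the scaling, at 0.81 on the main one, -0.63 in CPM and -0.65 with TMM factors.

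**Figure D4:**
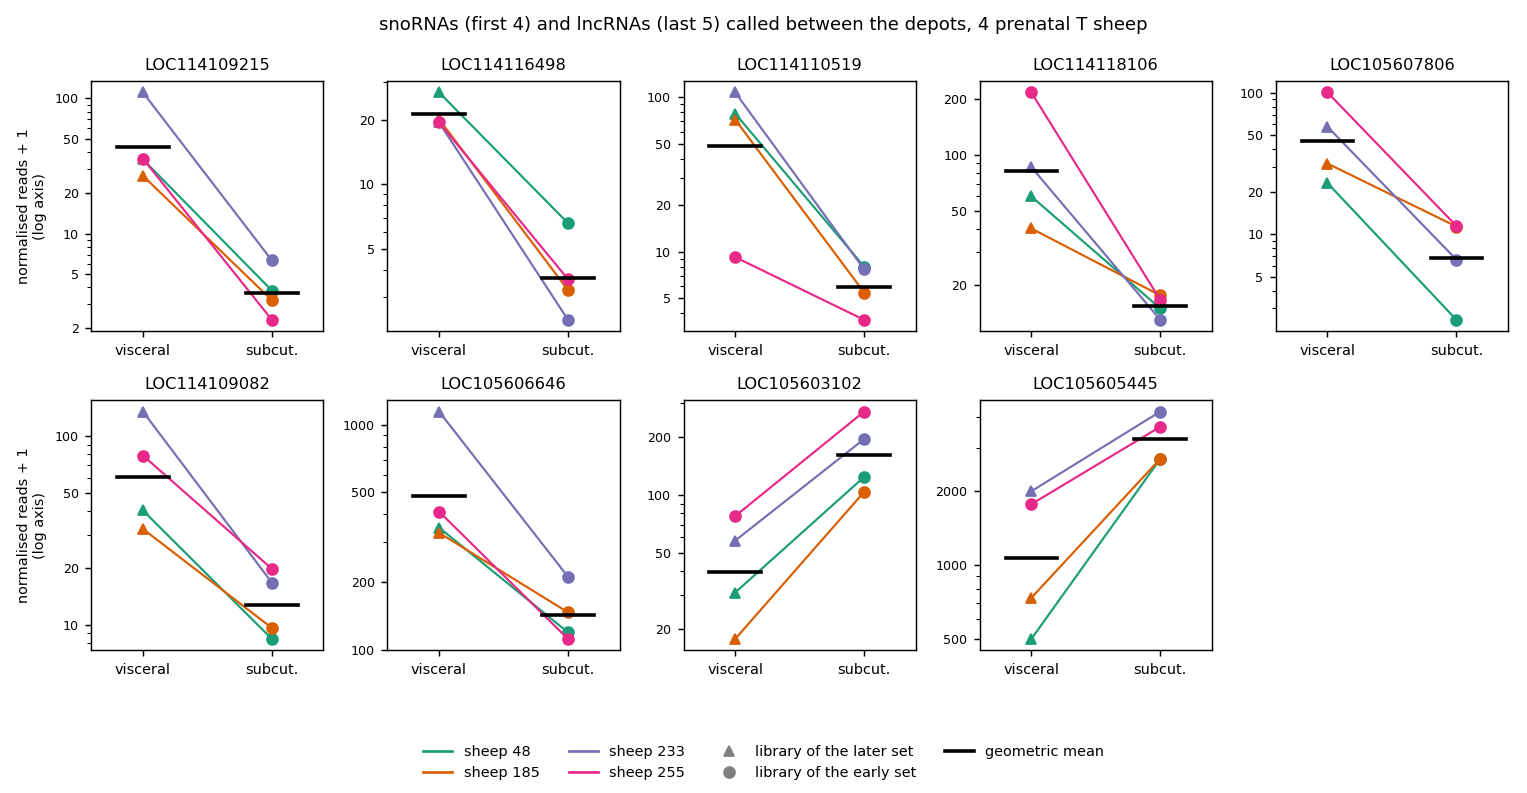
Normalised reads + 1 (log axis) of the 4 snoRNAs higher in visceral fat and the 5 lncRNAs that passed, in visceral and subcutaneous fat of 4 prenatal T sheep, with lines per sheep, triangles for the later and circles for the early library set, and bars for the geometric mean. The depots do not overlap in any panel; for LOC114110519 the visceral library of sheep 255 (8.21) lies far below the 3 later ones.

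The share of reads per RNA class was compared by an exact two-sided sign-flip permutation test over 4 sheep, for which 0.13 (rounded) is the smallest p possible. The snoRNA share was 1.68% ± 0.50 in visceral and 0.893% ± 0.173 in subcutaneous libraries (SD, n = 4 each; exact p = 0.13), higher in 4 of 4 sheep. It was 2.09%, 1.93% and 1.76% in the later visceral libraries of sheep 48, 185 and 233 and 0.957% in the early one of sheep 255, whose subcutaneous library had 0.859%. The lncRNA share was 10.5% ± 3.01 in visceral and 12.3% ± 1.02 in subcutaneous libraries (exact p = 0.13), and the visceral library of sheep 255 had 5.99%. MicroRNAs made up 87.6% ± 3.53 and snRNAs 0.260% ± 0.108 of visceral reads, against 86.7% ± 1.09 and 0.157% ± 0.0629 of subcutaneous reads (exact p = 0.875 and 0.25).

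Whether the depots differed in another way in prenatal T sheep than in control sheep was tested as the interaction of depot and treatment over 16 libraries, with sheep as a block. Pairs crossed library sets in prenatal T sheep 48, 185 and 233, but among control sheep in sheep 098 alone. Treatment and library set were therefore partly tied, and their parts in this test cannot be fully told apart. Of 400 features 1 passed (0.25%), a lncRNA among 125 tested (0.8%), 50 had an unadjusted p under 0.05, and 0 of 76 microRNAs passed with limma, edgeR or DESeq2 (7 at an unadjusted limma p under 0.05). Over all classes edgeR called 0 features and DESeq2 2. The 1 feature was LOC105607806, with a log2 (visceral / subcutaneous) of 2.71 (SE 0.36) in prenatal T sheep and 0.04 (SE 0.36) in control sheep (difference 2.67, SE 0.51, adjusted p = 0.0273). On their own scale of 8 libraries prenatal T sheep had differences of 3.22, 1.48, 3.12 and 3.14. On the scale of the 16 libraries, control sheep 131, 132 and 201, whose pairs were of 1 set, had -0.64, 0.18 and 0.18. The pair of control sheep 098, which crossed sets, enters the 0.04 of control sheep but is not listed. The call was lost when sheep 48 or 233 of the prenatal T group, or control sheep 131, 132 or 201, was left out, with differences of 2.46 to 2.72.

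The next 4 features in order of p did not pass. LOC114109215 had 3.64 (SE 0.41) in prenatal T sheep and 1.17 (SE 0.41) in control sheep (2.47, SE 0.58, adjusted p = 0.111). LOC114118106 had 2.47 (SE 0.43) in prenatal T sheep and -0.07 (SE 0.43) in control sheep (2.54, SE 0.61, adjusted p = 0.111). The lncRNA LOC101111367 was nearly level in prenatal T sheep, at -0.37 (SE 0.48), and low in visceral fat of control sheep, at -2.91 (SE 0.48) (2.54, SE 0.68, adjusted p = 0.18). The snoRNA LOC114117662 had -1.19 (SE 0.23) in prenatal T sheep and -0.08 (SE 0.23) in control sheep (-1.11, SE 0.32, adjusted p = 0.226). Among microRNAs MIR21 and MIR127 had the smallest p. MIR21 had 0.12 (SE 0.27) in prenatal T sheep and -1.08 (SE 0.27) in control sheep (1.20, SE 0.38, adjusted p = 0.33), and MIR127 had 1.86 (SE 0.20) in prenatal T sheep and 0.998 (SE 0.20) in control sheep (0.86, SE 0.29, adjusted p = 0.33).

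**Figure D5:**
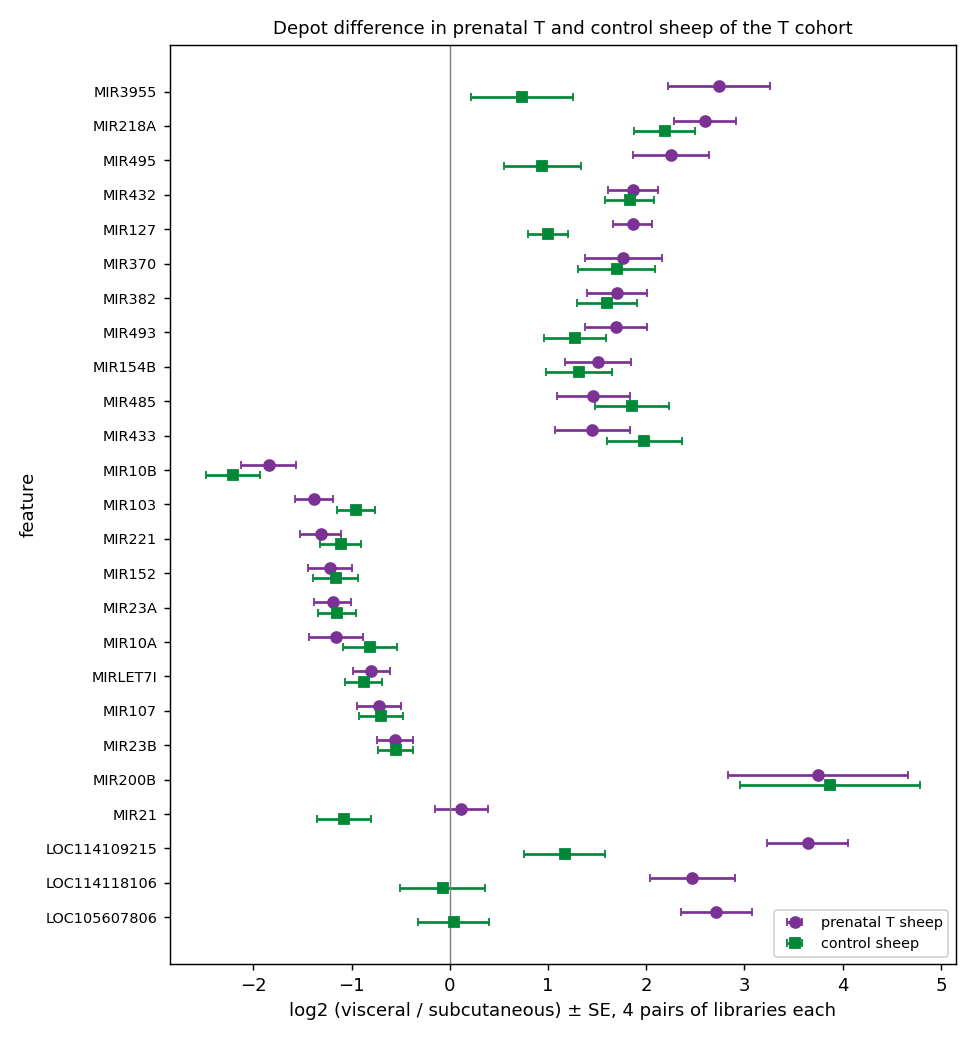
Log2 (visceral / subcutaneous) ± SE of named features in the 16-library fit, prenatal T sheep as purple circles above control sheep as green squares, each from 4 pairs of libraries. All microRNAs shown except MIR21 lie on the same side of 0 in both groups, and LOC105607806 lies at 2.71 in prenatal T sheep and 0.04 in control sheep.

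In a fit of their own, control sheep had 59 of 384 features called (15.4%), 26 higher (6.77%) and 33 lower (8.59%) in visceral fat. Their microRNA calls were 36 of 70 (51.4%), 17 higher (24.3%) and 19 lower (27.1%). Of the 23 features higher in prenatal T sheep 20 were tested in control sheep and 13 were also called higher, which is 56.5% of the prenatal T calls and 50% of the control calls. Of the 12 lower features 11 were shared, 91.7% of the prenatal T calls and 33.3% of the control calls. Among microRNAs 13 of the 16 higher calls were tested in control sheep and 12 were shared, as were 9 of the 9 lower calls. MIR10B had -2.27, MIR218A 2.13, MIR432 1.77 and MIR200B 3.85 as log2 fold changes in control sheep. Of the 4 snoRNAs higher in prenatal T sheep, 0 were called in control sheep with limma, where 9 of 156 snoRNAs were higher at an unadjusted p under 0.05. LOC114109215 was 1 of these 9. No snoRNA at all was called higher in control sheep, so that 0 of 4 does not set these 4 apart. Their log2 fold changes there were 1.17 (LOC114109215), 0.89 (LOC114116498), 0.29 (LOC114110519) and -0.07 (LOC114118106), with 3 of the 4 in the same direction. Of 30 snRNAs tested in control sheep, 4 were called higher and 1 lower. LOC114117093 (1.16) and LOC114117060 (0.80), which did not pass in prenatal T sheep, were among the 4 (adjusted p = 5.63e-05 each, limma).

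The sheep of the BPA cohort gave the same comparison in other animals. In BPA-exposed sheep 27 of 462 features were called higher in visceral fat (5.84%) and 16 lower (3.46%), and in their controls 21 of 452 higher (4.65%) and 31 lower (6.86%). In BPA-exposed sheep 3 of 4 visceral and all 4 subcutaneous libraries were later ones, whereas in their controls 3 of 4 visceral libraries were early and 3 of 4 subcutaneous ones later. Of the 23 higher features 21 were tested in BPA-exposed sheep and 22 in their controls, and all 12 lower ones in both. Of the 23, 14 were called higher in BPA-exposed sheep (60.9% of the prenatal T calls, 51.9% of the BPA calls) and 10 in their controls (43.5% and 47.6%). Of the 12 lower features 7 were called lower in BPA-exposed sheep (58.3% and 43.8%) and 7 in their controls (58.3% and 22.6%). MIR127 had log2 fold changes of 1.70 in BPA-exposed sheep and 0.99 in their controls, and MIR218A had 2.63 and 2.13 in the same order. MIR10B had -1.80 in BPA-exposed sheep and -1.70 in their controls. MIR10A, at -1.13 in prenatal T sheep, had -0.01 in BPA-exposed sheep and 0.49 in their controls, neither of which passed. MIR21 was lower in visceral fat of BPA-exposed sheep (-1.67, adjusted p = 2.66e-06) and of their controls (-2.29, adjusted p = 1.13e-13), as in control sheep of the T cohort (-1.14, adjusted p = 0.00131). LOC105607806 had -0.23 in BPA-exposed sheep and -0.40 in their controls. Differences between the cohorts were not tested.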

How the data were processed

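Small RNA libraries were made from total RNA of fat with the NEBNext small RNA kit, per the labels' protocols. The submitters' processing notes name cutadapt 3.2, STAR 2.6.0c and featureCounts 1.6.1. Which genome build was used is not stated. The deposited tables, 1 for each RNA class in each cohort, hold a signal, namely read counts scaled by library size factors. The authors' factors equalled median ratios over the 8 libraries of a depot (SD of the log2 difference 0), so that levels of different depots were not on a common scale. Whole reads were recovered from 100% of values (tolerance 1e-05).

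Values of the 8 libraries were rescaled by the median ratio per class. Features with a mean of at least 5 were fitted as log2(value + 1) with limma 3.58.1 (R 4.3.3, trend, sheep as a block, 1 fit per class, Benjamini-Hochberg within a class, threshold 0.05). Of 105 microRNAs, 694 snoRNAs, 1148 snRNAs and 2973 lncRNAs listed, 105, 621, 1010 and 1372 matched the RefSeq table used for names and neighbours. Replicates are separate sheep, and the pairing comes from the sheep numbers in the labels: deviations of the 2 libraries of a sheep correlated with r of 0.36 to 0.65 over microRNAs, 0.34 to 0.43 over lncRNAs, 0.11 to 0.31 over snoRNAs and -0.29 (sheep 185) to 0.67 over snRNAs. edgeR 4.0.16 and DESeq2 1.42.0 on recovered reads, other scalings, pseudocounts and filters, fits with the library set and leaving out each sheep were alternatives.

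Named features were called features with 1 direction in 4 sheep (up to 12 higher and 12 lower microRNAs, 4 of other classes), the 8 most abundant microRNAs, listed microRNAs, the 3 smallest p in classes with few calls, and for the interaction the called feature. MIR200A, MIR200B, MIR329B and MIR150 are listed members or calls. The 4 further features of the interaction were chosen after their values were seen. The 1 snoRNA called lower is counted but not reported here by name. Members and lists were chosen with earlier results of these data known. Libraries of 260804 to 740161 reads, which are not unique molecules, limit the precision of scarce features.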

Additional observations from a re-analysis of the deposited data

Results flagged for a closer look

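In groups of 4 libraries, 1 library was taken to stand apart where its gap to the nearest other exceeded 0.83 of the range (of log2(normalised reads + 1), or of the share), which chance alone gives in about 1 in 20 groups, and 78 groups were checked. In visceral fat, sheep 255 stood apart with 2179 normalised reads of MIR10B, 20.5 of MIR154B and 8.21 of LOC114110519, and with 5.99% of its reads in lncRNAs. Sheep 233 stood apart in visceral fat with 68.3 of MIR495, and sheep 48 with 25.8 of LOC114116498. In subcutaneous fat, sheep 48 stood apart with 0 reads of MIR665 and sheep 255 with 9.49 of MIR433. The depot difference of LOC105607806 was larger in prenatal T than in control sheep by 2.67 on the log2 scale (interaction, limma adjusted p = 0.0273).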

How the results depend on the processing

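MIR103, MIR127 and MIR218A kept their direction and call under all 18 alternatives. Against 23 features called higher and 12 lower, CPM gave 38 higher, the values as deposited 33 lower, DESeq2 59 and 21, and leaving out 1 sheep 8 to 73 higher and 6 to 36 lower. Without sheep 48, 185, 233 or 255 in turn, 10, 18, 8 and 73 were higher and 9, 6, 7 and 36 lower. A term for the library set gave 38 and 44 with the replicate block, where it rests on sheep 255 alone, and 58 and 35 without it, and early libraries alone, in which the 1 visceral library of sheep 255 met 4 subcutaneous ones, gave 60 and 42. Without the replicate block 22 and 10 were called, of which 11 and 6 were shared. The within-set fit, added after seeing the data, gave 17 and 16, kept 21 of the 34 calls it could test and reversed LOC114110519 (-0.39). With the set term and no block, and with early libraries alone, both resting on the visceral library of sheep 255 without its pairing, these reversed although the pair of sheep 255 itself was higher in visceral fat: MIR150 (-0.27 and -0.22), MIR433 (-0.50 and -0.45), MIR370 (-0.25 and -0.20), MIR485 (-1.02 and -0.97) and MIR154B (-0.16 and -0.11). As deposited, MIR150 was -0.16. The interaction, with 1 higher and 0 lower, gave 2 higher at a pseudocount of 5 and with DESeq2, 0 with no filter, with no replicate block, with the set term alone and with edgeR, 8 higher and 2 lower with the set term and the block, and 0 to 4 higher leaving out 1 sheep. The difference in microRNA share was 0.906 percentage points and ranged from -0.383 to 1.49 leaving out 1 sheep. The cause of these changes was not tested.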
